A study of Caenorhabditis elegans with 4 samples.

Results

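The mitochondrial ribosomal protein genes of *C. elegans* were taken as all rows of the deposited gene table whose name begins with *mrpl-* (large subunit) or *mrps-* (small subunit). This gave 66 of the 15286 genes in the table, 39 for the large and 27 for the small subunit. The rule rests on names and uses no measured value, but it was chosen with earlier results of these data known. Each of the 66 had enough reads to be tested.

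Mitochondria keep ribosomes of their own, which translate the few respiratory chain subunits encoded in mitochondrial DNA. Their RNA comes from the mitochondrial genome, but all of their proteins are encoded in the nucleus, made in the cytoplasm and imported. In worms the oocyte passes its mitochondria to the embryo, and the germ line is the site where these organelles multiply most in the adult. Knockdown of *mrps-5* or other members in *C. elegans* larvae is known to slow respiration, to switch on the mitochondrial unfolded protein response and to lengthen life.

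The RNA-seq libraries were made from polyadenylated RNA of dissected adult gonads, 2 from N2 wild-type worms and 2 from H3.3K27M mutant worms (strain FAS58, allele *uge40*[K27M] of *his-72* on chromosome III), and both strains were kept at 25 °C. The mutant carries lysine 27 replaced by methionine in *his-72*, a gene for the histone variant H3.3, in every tissue and not only in the germ line. The titles of the mutant libraries carry the strain number FAS43, and the extraction text of the labels describes embryos and larvae where the methods of the study describe gonads. The methods of the study call the libraries of each strain biological replicates.

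Total counts on genes ran from 28298609 to 32957429 per library. Levels are given in CPM, counts scaled to a common library size, after TMM normalization, which assumes that most genes do not differ. All 10 germ line markers were detected, with summed levels of 19200 and 15162 CPM in wild type and 14035 and 11397 CPM in the mutant. Most of the difference came from *rme-2*, the yolk receptor of oocytes, and without it the sums were 6903 and 6331 CPM in wild type and 7053 and 5604 CPM in the mutant, with overlap. The median log2 fold change of the 10 was 0.00072, and 0 were called. The 10 intestine markers summed to 321 and 3188 CPM in wild-type replicates 1 and 2 against 31.4 and 33.8 CPM in the mutant. The 5 of them that were called lower, *vit-2* to *vit-6*, encode yolk proteins. Of the other intestine markers, *asp-1* and *ifb-2* had log2 fold changes below 0. *ges-1* (2.54), *fat-2* (1.11) and *elt-2* (1.37, with 1 to 6 reads per library) had values above 0. None of these others was called, and the sums do not measure intestine RNA as a whole. *his-72* itself had 64.2 and 81.8 CPM in wild type and 50.3 and 60.4 CPM in the mutant. The log2 fold change was -0.40, with a standard error (SE) of 0.21 and a Benjamini-Hochberg adjusted *p* of 0.281 in edgeR's quasi-likelihood test. RNA level does not show the point mutation, so this value is no check of the genotype.

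In the H3.3K27M mutant gonads the mitochondrial ribosomal protein genes were lower as a group by a modest amount, and no single gene passed the test. The summed level of the 66 genes was 1917 and 2013 CPM in wild-type replicates 1 and 2, and 1735 and 1427 CPM in mutant replicates 1 and 2. Both mutant libraries lay below both wild-type libraries. The mean of 1581 ± 218 CPM in the mutant was 80.4% of the mean of 1965 ± 67.5 CPM in wild type (SD, n = 2 each). The summed CPM of all 15261 tested genes is set by the TMM factor of each library and does not measure the amount of RNA. For wild-type replicates 1 and 2 the factors were 0.919 and 0.978, with totals of 1087640 and 1022400 CPM. For mutant replicates 1 and 2 the factors were 0.991 and 1.12, with totals of 1009260 and 891025 CPM. The lower totals of the mutant libraries, lowest for replicate 2, thus reflect their higher factors. The sums of the 66 members were scaled by the same factors. With 2 libraries against 2 the smallest two-sided *p* of an exact permutation test is 0.333, and no test of either sum is given. In these bulk libraries, fewer cells of a type and less RNA per cell cannot be told apart.

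The median log2 fold change of the members was -0.39, with quartiles of -0.62 and -0.26 and a range from -1.47 to 0.24. Over all 15261 tested genes the median was -0.11, and over the 8212 autosomal genes whose mean reached 1 CPM it was -0.0086. The fitted value was below 0 for 61 of the 66 members (92.4%), against 56.0% of all tested genes and 50.9% of the autosomal genes at 1 CPM or more. Both mutant libraries were below both wild-type libraries for 45 members (68.2%). That pattern held for 32.7% of all tested genes and for 28.7% of the autosomal genes at 1 CPM or more. The opposite pattern, both mutant libraries above both wild-type libraries, held for 0 members, for 24.1% of all tested genes and for 30.1% of the autosomal ones.

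With limits of 0.05 for the adjusted *p* and 2 for the fold, edgeR's quasi-likelihood test called 0 of the 66 members higher and 0 lower in the mutant. Among all tested genes 4.43% were called higher and 1.46% lower. Without the limit on the fold the members called were again 0, against 4.48% higher and 1.48% lower among all tested genes. At an unadjusted *p* under 0.05, 17 members were lower and 0 were higher. The shares of all tested genes at that limit were 12.4% lower and 12.3% higher, and 9.46% of the autosomal genes at 1 CPM or more were lower. The smallest adjusted *p* of any member was 0.0504, for *mrpl-14*, and 5 members, all lower in the mutant, had an adjusted *p* under 0.1, against 3.31% of all tested genes.

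The absence of calls depended on the test. DESeq2 gave 3 members as lower at both limits, *mrps-23*, *mrps-28* and *mrpl-53* (3.42% of all tested genes were lower there), and 5 at the adjusted *p* alone, with *mrpl-17* and *mrpl-14* added (4.28% of all). The classic exact test of edgeR gave 1 at both limits, *mrps-23* (3.34% of all), and 2 at the adjusted *p* alone, with *mrpl-14* added (3.70% of all). With a stricter filter on low counts *mrpl-14* was the only member past the adjusted *p* (2.20% of the genes kept), as it was with the older quasi-likelihood method of edgeR (1.72% of all). The standard errors of the members ran from 0.17 to 0.83 with a median of 0.23 on the log2 scale. For 35 members the 95% interval lay entirely within a 2-fold difference in either direction.

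**Figure D1:**
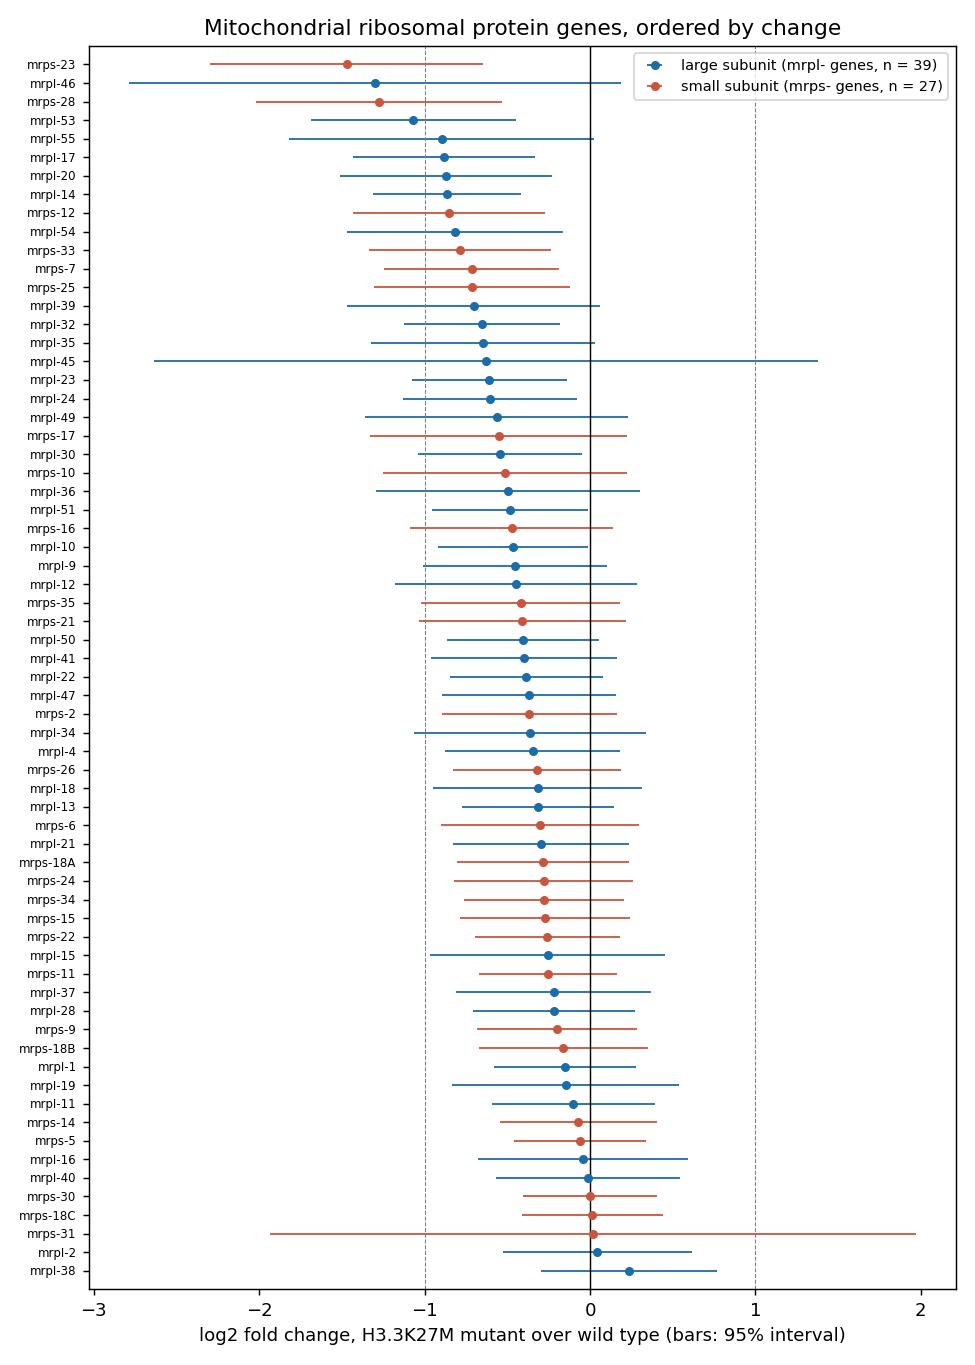
Fitted log2 fold change of each of the 66 mitochondrial ribosomal protein genes (H3.3K27M mutant over wild type, x axis), with its 95% interval as a bar and dashed lines at 2-fold in either direction. Values run from -1.47 for *mrps-23* to 0.24 for *mrpl-38*, 61 of the 66 lie below 0, and for 17 the interval does not reach 0.

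The 2 mutant libraries differed in how far the members lay below wild type. Against the wild-type mean, the median log2 ratio of the members was -0.23 in mutant replicate 1 and -0.59 in mutant replicate 2. In replicate 1, 55 members were below the wild-type mean and in replicate 2, 64. Replicate 2 was the lower of the 2 mutant libraries for 62 members (93.9%), against 56.7% of the autosomal genes at 1 CPM or more. Without mutant replicate 2 the median log2 fold change of the members was -0.23 and that of the autosomal genes was 0.027, a difference of -0.26. Without mutant replicate 1 the members' median was -0.54 and the difference from the autosomal genes -0.53. Without wild-type replicate 1 the members' median was -0.40 and without wild-type replicate 2 it was -0.32. The median was thus below 0 whichever library was left out, but its size varied, and it was closest to 0 without mutant replicate 2.

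The counts moved less. When the libraries were omitted singly, 55 to 64 members had a fold change below 0. Lower in every remaining mutant library than in every remaining wild-type library were 47 to 61 members, against 36.5% to 45.2% of the autosomal genes at 1 CPM or more, a condition that is easier to meet with fewer libraries. The intestine markers summed to 321 and 3188 CPM in wild-type replicates 1 and 2, and the members to 1917 and 2013 CPM. Between the strains those markers did not all move in the same direction, so their sum does not measure intestine RNA as a whole. The part of intestine RNA in the result was not tested.

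*mrps-23*, a small subunit protein with no bacterial counterpart (WBGene00014224, chromosome III, 9523121 to 9523672, minus strand, WBcel235), had the lowest fold change. Its level was 20.4 and 17.5 CPM in wild-type replicates 1 and 2, and 8.97 and 4.66 CPM in mutant replicates 1 and 2. The strains did not overlap, and mutant replicate 2 was the lowest library. The log2 fold change was -1.47 (SE 0.34, edgeR quasi-likelihood adjusted *p* = 0.0632), which puts the fitted mutant level at 36.1% of wild type. Next in order among well detected members was *mrps-28*, which in mammals is counted with the bacterial S1 proteins (chromosome V, 19644239 to 19645676). Its levels were 14.98 and 13.4 CPM in wild type and 7.23 and 4.47 CPM in the mutant, without overlap, with a log2 fold change of -1.28 (SE 0.31, edgeR quasi-likelihood adjusted *p* = 0.0708).

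In the large subunit, *mrpl-53*, which in mammals lies near the stalk (chromosome II, 9597622 to 9598201), had 14.8 and 17.8 CPM in wild type and 8.64 and 6.90 CPM in the mutant. All 4 libraries kept the strains apart, and the log2 fold change was -1.07 (SE 0.26, edgeR quasi-likelihood adjusted *p* = 0.0691). *mrpl-55*, another protein found only in mitochondrial ribosomes (chromosome IV, 443985 to 444786), had 6.76 and 7.39 CPM in wild type and 4.90 and 2.68 CPM in the mutant. Here mutant replicate 2 was far below replicate 1, and the log2 fold change of -0.90 had an SE of 0.38 (edgeR quasi-likelihood adjusted *p* = 0.211). *mrpl-46* (chromosome IV, 800818 to 804749) was weakly expressed, with 52 and 57 reads in wild type and only 32 and 17 in the mutant. The log2 fold change of -1.30 had an SE of 0.61 (edgeR quasi-likelihood adjusted *p* = 0.246), so the second lowest fold change among the members was also one of the least precise.

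The member with the smallest *p* was *mrpl-14*, a relative of bacterial L14, which sits at the interface of the subunits (WBGene00018475, chromosome II, 7308699 to 7310115). It had 43.5 and 44.3 CPM in wild type and 25.6 and 22.6 CPM in the mutant. Replicates of each strain were close and the strains were well apart, at 43.9 ± 0.603 and 24.1 ± 2.12 CPM (SD, n = 2 each). The log2 fold change was -0.86 (SE 0.18, edgeR quasi-likelihood adjusted *p* = 0.0504), just outside the limit. *mrpl-17*, a relative of bacterial L17, had 17.7 and 19.5 CPM in wild type and 10.9 and 9.26 CPM in the mutant, with a log2 fold change of -0.89 (SE 0.23, edgeR quasi-likelihood adjusted *p* = 0.0844).

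*mrps-12* is a relative of bacterial S12, the protein of the decoding centre (chromosome V, 20838080 to 20838768). It had 15.09 and 14.99 CPM in wild type and 9.095 and 7.53 CPM in the mutant, with no overlap and a log2 fold change of -0.85 (SE 0.24, edgeR quasi-likelihood adjusted *p* = 0.105). The stalk, which recruits translation factors, is built on *mrpl-10* and carries copies of *mrpl-12*. *mrpl-10* had 52.3 and 45.3 CPM in wild type and 37.4 and 33.2 CPM in the mutant, without overlap and at -0.47 on the log2 scale (SE 0.19, edgeR quasi-likelihood adjusted *p* = 0.194). For *mrpl-12* the strains overlapped, with 15.7 and 21.8 CPM in wild type and 16.7 and 10.7 CPM in the mutant. The log2 fold change of -0.45 had an SE of 0.30 (edgeR quasi-likelihood adjusted *p* = 0.393).

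Some of the most abundant members showed hardly any difference. *mrps-30*, whose mammalian relative is a large subunit protein despite its name, was the most abundant member (chromosome I, 10636692 to 10638966), with 110.0 and 117.0 CPM in wild type and 119.0 and 108.2 CPM in the mutant. The fitted difference was 0.0013 on the log2 scale (SE 0.17, 95% interval -0.40 to 0.41). *mrps-5*, the relative of bacterial S5 known for its effect on lifespan (chromosome V, 12563487 to 12565801), had 94.1 and 100.3 CPM in wild type and 96.1 and 90.3 CPM in the mutant. The strains overlapped for both genes, and the log2 fold change of *mrps-5* was -0.060 (SE 0.17, 95% interval -0.46 to 0.34). *mrps-22*, a mitochondria-specific small subunit protein (chromosome II, 10582618 to 10584236), had 79.4 and 84.2 CPM in wild type and 74.6 and 62.1 CPM in the mutant, with no overlap. The log2 fold change was -0.26 (SE 0.18, edgeR quasi-likelihood adjusted *p* = 0.409).

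The highest fold changes among the members were close to 0. *mrpl-38*, a mitochondria-specific large subunit protein (chromosome I, 1019827 to 1029910), had 31.5 and 43.0 CPM in wild type and 46.8 and 41.0 CPM in the mutant. The strains overlapped, and the log2 fold change was 0.24 (SE 0.22, edgeR quasi-likelihood adjusted *p* = 0.528). *mrpl-2*, the relative of bacterial L2 beside the peptidyl transferase centre, had 22.8 and 24.7 CPM in wild type, and the mutant libraries lay on both sides of these, at 28.6 and 20.3 CPM. *mrps-18C* had 67.6 and 71.3 CPM in wild type and 75.3 and 64.9 CPM in the mutant, and *mrpl-40* had 13.2 and 16.3 CPM in wild type and 15.3 and 14.01 CPM in the mutant. The fold changes of *mrpl-2*, *mrps-18C* and *mrpl-40* were 0.045, 0.013 and -0.011 on the log2 scale, and each of them, like that of *mrps-30*, took either sign depending on the library left out.

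**Figure D2:**
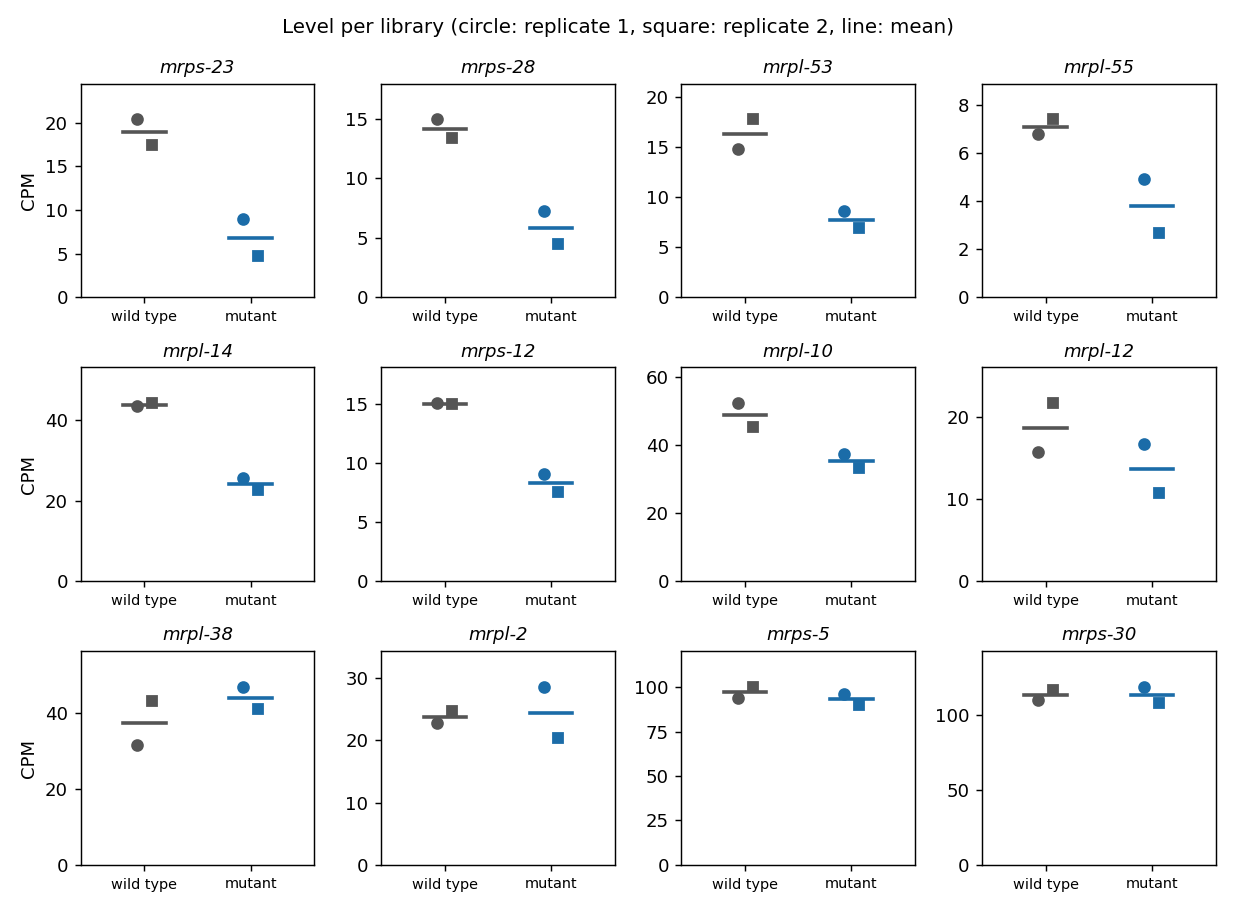
Level of 12 members in CPM (y axis, linear and starting at 0, with its own range in each panel) in the wild-type and mutant libraries, with circles for replicate 1, squares for replicate 2 and lines for the means. In the panels from *mrps-23* to *mrpl-10* both mutant libraries lie below both wild-type libraries, whereas in *mrpl-12*, *mrpl-38*, *mrpl-2*, *mrps-5* and *mrps-30* the strains overlap.

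Levels between genes were compared per kilobase of exon. The members spanned 0.306 to 74.7 CPM per kilobase with a median of 26.1, and 63 of the 66 had a mean of at least 5 CPM. *mrpl-28*, *mrps-30* and *mrps-5* were the highest on this scale, at 74.7, 67.2 and 64.6 CPM per kilobase. At the other end, *mrpl-45*, *mrps-31* and *mrpl-46* had 0.306, 0.439 and 1.03 CPM per kilobase. *mrpl-45*, whose mammalian relative tethers the ribosome to the inner membrane, was represented by 13 and 33 reads in wild type and by 20 and 13 in the mutant. *mrps-31*, a mitochondria-specific small subunit protein, was represented by 33 and 22 reads in wild type and by 49 and 13 in the mutant. For *mrpl-45* the wild-type replicates, and for *mrps-31* the replicates of each strain, lay farther apart than the strain means, and the standard errors of 0.83 and 0.80 were the largest of the members.

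Subunits were assigned by name alone, so *mrps-30* counts as small here. For large subunit genes the median log2 fold change was -0.45, with 37 of 39 below 0 and 25 (64.1%) lower without overlap of the strains. For small subunit genes it was -0.30, with 24 of 27 below 0 and 20 (74.1%) lower without overlap. Lower without overlap were 32.7% of all tested genes. Among other autosomal genes at 1 CPM or more the share was 51.9% up to 750 bases and 22.2% over 1000 bases. By the number in the name, following the human proteins, 44 members have a bacterial relative and 22 are found only in mitochondrial ribosomes. The medians of these classes were -0.36 and -0.45 on the log2 scale. The 13 mitochondria-specific large subunit genes had the lowest median of the 4 combined classes, at -0.56, and the 18 small subunit genes of bacterial type the highest, at -0.29. These differences between classes were not tested.

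None of the 66 genes lies on chromosome X, which holds 13.1% of the tested genes with a position and where the genes at 1 CPM or more had a median of -0.76 on the log2 scale. The members were spread over the autosomes, with 14 on chromosome I, 12 on II, 21 on III, 10 on IV and 9 on V. Their medians on these chromosomes were -0.34, -0.40, -0.32, -0.60 and -0.42 on the log2 scale. The fold changes of 12 of 12 members on chromosome II and 9 of 9 on chromosome V were below 0, as were 12 of 14, 19 of 21 and 9 of 10 on chromosomes I, III and IV.

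Exonic length moved with the fold change. The median exonic length of the members was 767 bases, against 1513 bases for the autosomal genes at 1 CPM or more. Among the members the Spearman correlation of length with log2 fold change was 0.54 (n = 66), and among the other autosomal genes at 1 CPM or more it was 0.26 (n = 8148). The points share the 4 libraries, and in the members length also went with level (Spearman correlation 0.60), so these cannot be told apart in them. The Spearman correlation of level with log2 fold change was 0.54 in the members and -0.15 in the other autosomal genes. In the members length had a correlation of 0.58 with the ratio of mutant replicate 1 alone and 0.36 with that of mutant replicate 2.

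Over the 32 members of up to 750 bases the median log2 fold change was -0.53, and 26 were lower in both mutant libraries than in both wild-type libraries, a pattern held by 51.9% of the other autosomal genes of that length at 1 CPM or more. The 21 members over 1000 bases had a median of -0.26, with 9 lower in this way, against 22.2% of the other genes. *mrps-23*, at 449 bases, and *mrpl-53*, at 486 bases, were among the 6 members of up to 500 bases, whose median was -0.86. The other autosomal genes of that class had a median of -0.39, and 57.4% of them were lower in both mutant libraries, as were 6 of the 6 members. In the next classes, up to 750, 1000 and 1500 bases, these shares of the other genes were 48.8%, 42.3% and 30.2%, and the members lower in this way were 20 of 26, 10 of 13 and 9 of 17. From 501 to 750 bases the medians were -0.50 for 26 members and -0.26 for the other genes, and from 751 to 1000 bases they were -0.37 for 13 members and -0.17. From 1001 to 1500 bases they were -0.26 for 17 members and -0.052 for the other genes. The 4 members over 1500 bases include the weakly expressed *mrpl-45* and *mrps-31*. In order of length, the median of the members minus that of the other genes was -0.47, -0.24, -0.20 and -0.21 on the log2 scale, and in the other genes too the shorter classes had the lower medians. RNA quality was not measured in the deposited table, and the part of length in the result was not tested beyond these classes.

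**Figure D3:**
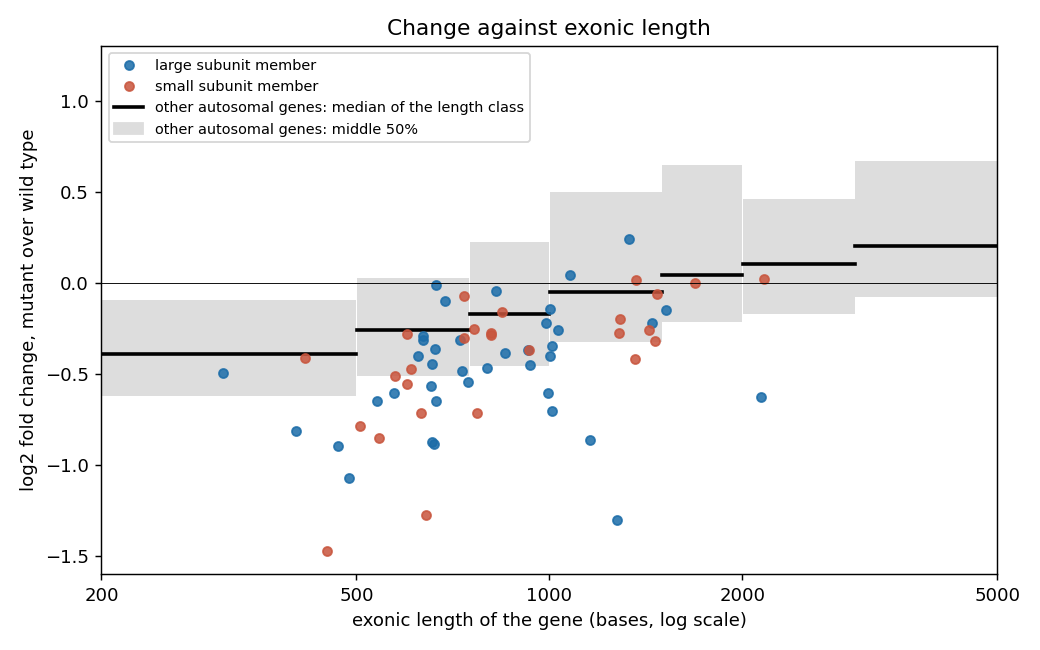
Log2 fold change (mutant over wild type, y axis) against exonic length in bases (x axis, log scale) for the 66 members as points, with the other autosomal genes at 1 CPM or more as medians (black lines) and middle 50% (grey boxes) of each length class. The members of up to 500 bases have a median of -0.86 and the other genes of that class -0.39, and in both the medians of the classes up to 1500 bases are higher in longer genes.

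Many members have a close neighbour on the same strand, as in the operons of the worm. Within 200 bases, a distance chosen after the values were seen, 30 members had such a neighbour, in 38 pairs. In 35 of these the neighbour lay outside the name rule and had a mean of at least 1 CPM. The median log2 fold change was -0.40 for the members and -0.15 for the neighbours in these pairs, and the member was the lower of the 2 in 28 of 35. The neighbours were longer, with a median of 1349 bases, and 0 of them passed the test of edgeR. *mrps-2* and *mrpl-4*, relatives of bacterial S2 and L4, follow each other on chromosome V with a gap of 105 bases and had log2 fold changes of -0.37 and -0.35. *mrpl-1* and *mrps-24* start from opposite strands on chromosome IV, 343 bases apart, and had values of -0.15 and -0.28. *dap-3*, a GTP-binding protein of the small subunit that lies outside the name rule, is one of these neighbours, precedes *mrps-22* on chromosome II and had a log2 fold change of -0.25, close to the -0.26 of *mrps-22*.

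Other parts of mitochondrial gene expression were examined from lists of named genes. Of 14 tested genes for translation factors and mitochondrial aminoacyl-tRNA synthetases, 0 passed the test in either direction and 7 were below 0, and the median was -0.0049 on the log2 scale. The one farthest from 0 was *pars-2*, a prolyl-tRNA synthetase, at 130.6 and 111.5 CPM in wild type and 86.3 and 53.1 CPM in the mutant (-0.80 on the log2 scale, SE 0.26, edgeR quasi-likelihood adjusted *p* = 0.142). Of 5 genes for copying and transcribing mitochondrial DNA, 0 passed, and their median was 0.16. *mtss-1*, a DNA-binding protein, was the farthest from 0 among those at 1 CPM or more (-0.48, SE 0.25). Of 12 genes for the mitochondrial unfolded protein response and quality control, 0 passed and the median was -0.033. *haf-1*, a peptide transporter of the inner membrane, had the value farthest from 0 in that list at 1 CPM or more, with 4.27 and 5.47 CPM in wild type and 2.27 and 1.35 CPM in the mutant (-1.42, SE 0.44, edgeR quasi-likelihood adjusted *p* = 0.129). The chaperone gene *hsp-6*, a standard reporter of mitochondrial stress, had a log2 fold change of -0.15 (SE 0.23) and *hsp-60* one of 0.27 (SE 0.26), each smaller than or about as large as its error. The 2 ribosomal RNAs of the mitochondrial genome, listed as MTCE.7 and MTCE.33, had values of 0.037 and -0.061, although selection for poly(A) limits what these counts measure.

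The import machinery and the cytoplasmic ribosome were the lists whose values lay nearest those of the members. Of 13 tested import genes 12 were below 0 and 0 passed the test, with a median log2 fold change of -0.29. The lowest were *tin-13*, a small chaperone of the space between the membranes (-0.96, edgeR quasi-likelihood adjusted *p* = 0.0645), and *tomm-22*, a receptor of the outer membrane (-0.75, edgeR quasi-likelihood adjusted *p* = 0.0822), with 427 and 471 exonic bases. Of 76 cytoplasmic ribosomal protein genes 73 were below 0, with a median of -0.50, and 48 (63.2%) were lower in both mutant libraries than in both wild-type libraries. That pattern held for 32.7% of all tested genes. It held for 51.9% of the other autosomal genes of up to 750 bases at 1 CPM or more, and the median exonic length of the 76 was 538 bases. The summed level of the 76 was 37930 and 46254 CPM in wild type and 36111 and 26848 CPM in the mutant, again lowest in mutant replicate 2. Only *rpl-25.1* and *rpl-11.2* passed the test in this list, and both were higher in the mutant. The 26 respiratory chain genes had a median of -0.090 with 18 below 0, and 1 of them, the X-linked complex I gene *gas-1*, rose by 1.88 on the log2 scale (edgeR quasi-likelihood adjusted *p* = 0.0108). Whether the members differ from these lists was not tested.

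**Figure D4:**
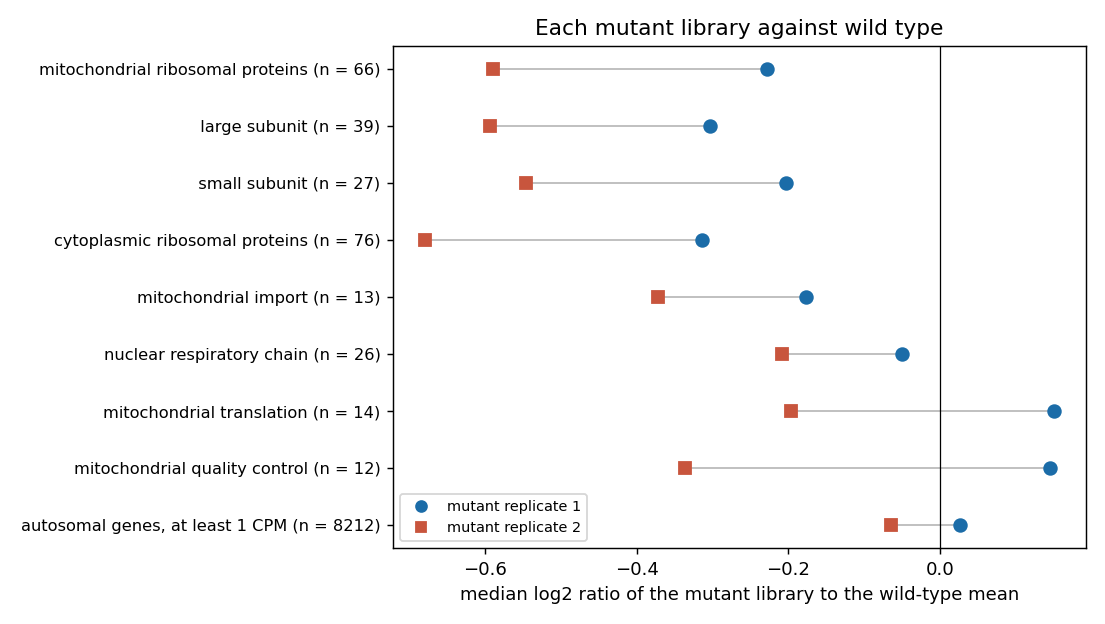
Median log2 ratio of each mutant library to the wild-type mean (x axis) for the members, their subunits and 5 other lists, with all autosomal genes at 1 CPM or more at the bottom, circles for mutant replicate 1 and squares for mutant replicate 2. The members lie at -0.23 and -0.59, and the autosomal genes at 0.026 and -0.066.

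The reads behind some members may be shared with other genes. By the Ensembl annotation 21 of the 66 overlap another gene, 19 of them a protein-coding one, among these *mrps-23*, *mrpl-53*, *mrpl-14*, *mrpl-10* and *mrpl-12*. Whether the counting used the strand is not given in the sources used here, so their values could hold reads of the overlapping gene. The newer annotation also gives a name of this family to 4 genes that the deposited table lists under other names. They are F02A9.4 (*mrpl-44*), K11B4.1 (*mrps-27*), CD4.3 (*mrpl-48*) and T14B4.2 (*mrps-18.C*), with log2 fold changes of 0.17, -0.24, -0.32 and -0.74, and 0 of the 4 passed the test. They were not counted among the members.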

How the data were processed

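RNA-seq libraries of dissected adult gonads were compared between N2 wild type and the H3.3K27M mutant, with 2 replicates per strain, grouped by the strain label. Per the submitters' processing notes and the methods, the authors mapped reads of 50 bases from a stranded mRNA kit to WBcel235 with TopHat2 2.0.13, counted them with HTSeq 0.6.1 and tested them with edgeR 3.10.5. The raw counts that the authors deposited are whole reads per gene, and only these were analysed. The normalized counts that the authors deposited are a signal scaled to library size and were not used. The deposited log2 fold changes, average log2 CPM values and p-values hold the authors' own comparison and were not used.

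Counts of the 15261 genes with at least 1 count were TMM-normalized and fitted with edgeR 4.0.16 (glmQLFit, glmQLFTest) under R 4.3.3. The model held strain alone, with Benjamini-Hochberg adjustment over all tested genes. The limits were an adjusted *p* of 0.05 and a fold change of 2. Standard errors (SE) were obtained from each log2 fold change and its F statistic, and 95% intervals use the degrees of freedom of the fit. Ratios of single libraries add 0.1 CPM to both terms. Genes detected per library numbered 13116 to 14726. Positions and exonic lengths came from Ensembl release 115 (WBcel235), which held 15159 of the genes and all 66 members. Correlations were computed with scipy 1.17.1. The script was tested on simulated data of the same design. Planted log2 changes of 1 were called for 2 of 65 genes, of 2 for 32 of 72 and of 3 for 48 of 63. An absence of calls therefore says little about differences of 2-fold or less.

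Members named with values in every library were those past the adjusted *p*, the 5 highest and 5 lowest fold changes at 1 CPM or more, the 3 most and 3 least abundant, and *mrps-5*, *mrps-12*, *mrpl-12* and *mrpl-10*. Other lists are shown by the genes called or farthest from 0. *mrpl-14*, *mrpl-17*, *mrpl-28*, *hsp-6*, *hsp-60* and the neighbouring pairs were added after their values were seen. The members and the gene lists were chosen with earlier results of these data known. Alternatives were RLE normalization, DESeq2 1.42.0, the filterByExpr filter, the legacy quasi-likelihood method, the classic exact test, a replicate block and leaving out each library. No sequences are printed, since none were read here.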

Additional observations from a re-analysis of the deposited data

How the results depend on the processing

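The numbers of members called lower, and past the adjusted *p* alone, were 0 and 0 with edgeR's quasi-likelihood test, 3 and 5 with DESeq2 and 1 and 2 with the classic exact test. The second number was 1 with the filterByExpr filter and 1 with the legacy method. 0 members were called higher under any of these. With the replicate block both numbers were 0 and the median log2 fold change was -0.39. The replicate numbers did not pair the libraries (correlation of their deviations -0.13 over 9237 genes), and with the numbers crossed, an alternative added after seeing the data, 0 members were called. Over all genes the calls were 676 higher and 223 lower, 1228 and 522 with DESeq2, 1086 and 510 with the classic exact test, 372 and 91 with the replicate block, and 640 and 216 with the crossed block.

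With each library left out in turn, 0 members were called in each case, but few genes of any kind were: the calls over all genes in both directions were 0 without mutant replicate 1 and without wild-type replicate 2, 13 without wild-type replicate 1 and 118 without mutant replicate 2, so these fits say nothing about calls among the members. The median log2 fold change ran from -0.54 to -0.23. Among named members the fold change took both signs for *mrpl-2* (-0.17 to 0.27), *mrps-18C* (-0.045 to 0.12), *mrps-30* (-0.017 to 0.069), *mrpl-40* (-0.12 to 0.15), *mrpl-45* (-1.13 to 0.21) and *mrps-31* (-1.15 to 0.66). It stayed below 0 for *mrps-23* (-1.97 to -1.08), *mrps-28* (-1.61 to -0.97), *mrpl-53* (-1.19 to -0.92) and *mrpl-14* (-0.91 to -0.78). The value of *mrpl-40* was 0.023 with RLE normalization and 0.022 with DESeq2, and that of *mrps-31* was -0.051 with the replicate block. The causes of these differences were not tested. *mrpl-45*, *mrps-31* and *mrpl-46* had 13 to 57 reads per library and standard errors of 0.61 to 0.83, against a median of 0.23 over the members.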
